A study of Rattus norvegicus with 4 samples.

Results

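The genes described here are the Id factors Id1, Id2 and Id3, the signal transducers Smad2, Smad3, Smad4 and Smad7, and the ligands Tgfb1, Tgfb2 and Tgfb3. They are 10 of the 4736 genes that an Affymetrix rat array reads with a probe set annotated to a single gene, and every probe set annotated to them was taken, 15 of 8740. The genes were proposed with earlier results of the same comparison known. Their differences between groups, and their place against the test threshold, are thus given as a description, and no p-value is printed for them. RNA came from the soleus of female rats (strain and age not stated), a hindlimb muscle of mostly slow fibres that works in standing. Unloaded rats were prevented for 10 h daily, on 11 days, from bearing weight on the hindlimbs, and control rats spent the 11 days caged with ordinary standing and walking. Each group had 2 arrays, and each array held the pooled RNA of 4 to 5 rats. Replicates are thus pools, whose spread is not that of single animals.

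Id proteins carry a helix-loop-helix domain but no DNA-binding region. They pair with E proteins and keep them from forming active dimers with tissue-specific bHLH factors, among them the myogenic factors of muscle. TGF-beta ligands bind receptor kinases that phosphorylate Smad2 and Smad3, which enter the nucleus with the shared partner Smad4. BMP ligands act through a parallel set of SMADs, and the Id genes are well-known direct targets of that branch. Smad7 is an inhibitory SMAD that TGF-beta itself induces and that blocks and removes the activated receptor. In muscle, TGF-beta is known for its part in fibrosis, and its relative myostatin for restraining growth.

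The promoters of Id1, Smad7 and Id2 are shown because these genes had the widest differences between the groups among the 10, the first pair lower and Id2 higher in the unloaded pools. The sequences are RefSeq windows of the rat assembly GRCr8, from 250 bases before the annotated start to the first 50 bases after it, at chr3:161671314-161671613 (plus strand), chr18:71263258-71263557 (plus strand) and chr6:47470946-47471245 (minus strand). Capitals mark CAGAC or its reverse complement GTCTG, a core to which SMADs bind, GGCGCC, a GC-rich SMAD motif, and CANNTG, the E-box that bHLH dimers bind. Both strands were searched, and no match overlapped another in these windows.
Id1: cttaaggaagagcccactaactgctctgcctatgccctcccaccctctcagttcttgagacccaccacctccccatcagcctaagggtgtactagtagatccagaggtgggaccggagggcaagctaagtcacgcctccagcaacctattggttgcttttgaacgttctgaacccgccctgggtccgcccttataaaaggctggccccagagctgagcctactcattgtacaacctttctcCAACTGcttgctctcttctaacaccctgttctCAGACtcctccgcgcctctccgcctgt
Smad7: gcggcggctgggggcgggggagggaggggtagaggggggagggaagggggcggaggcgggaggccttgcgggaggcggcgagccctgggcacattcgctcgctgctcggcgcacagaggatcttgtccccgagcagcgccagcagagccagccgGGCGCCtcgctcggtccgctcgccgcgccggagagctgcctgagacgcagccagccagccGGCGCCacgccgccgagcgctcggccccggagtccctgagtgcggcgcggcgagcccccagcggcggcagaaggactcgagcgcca
Id2: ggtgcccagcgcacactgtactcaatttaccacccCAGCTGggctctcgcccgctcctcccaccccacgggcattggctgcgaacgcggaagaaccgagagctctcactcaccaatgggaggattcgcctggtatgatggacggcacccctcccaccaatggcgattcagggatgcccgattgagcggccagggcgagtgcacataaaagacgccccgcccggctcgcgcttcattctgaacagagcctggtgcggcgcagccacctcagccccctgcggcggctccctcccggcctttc
The Id1 window held 1 CAGAC, starting 24 bases downstream of the start, and 1 E-box starting 9 bases upstream. The Smad7 window held GGCGCC at 96 and 36 bases upstream and no match to either other motif. The Id2 window held 1 E-box, 215 bases upstream. Among 33469 promoter windows of the same length, 50.1% held CAGAC, 11% GGCGCC and 72.1% CANNTG. All 10 genes had a window, and CAGAC was in that of 1 gene, GGCGCC in those of 3 and CANNTG in those of 6. A match describes letters and not a bound site, and binding was not measured.

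The 2% trimmed mean signal was 149.01 and 149.11 in the unloaded pools and 149.04 and 148.91 in the control pools, an equality that MAS5 scaling of each array to a common level would itself give. Log2 signals correlated at 0.988 between the unloaded pools and at 0.987 between the control pools, against 0.973 to 0.974 across the groups. Of 11 slow-muscle markers, 8 were on the array, and their summed signal was 53900 and 60175 in the unloaded pools and 57881 and 57937 in the control pools. The number of arrays limits the precision throughout.

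In the unloaded soleus Id1 (on 1 of 2 probe sets) and Smad7 were lower than in control muscle. Id2 was higher but did not pass the threshold given below. Every probe set of Id3, Smad2 and the TGF-beta ligands read lower in both unloaded pools, at ratios of group means from 0.59 to 0.93. Among all probe sets, 22.7% had both unloaded pools under both control pools. Smad4 read higher in both unloaded pools, as did 20.9% of all probe sets. None of these genes passed that threshold, and the pools of Smad3 overlapped. Differences below are unloaded minus control on the scale log2(signal + 9), which understates those of dim probe sets, with the standard error (SE) of a limma fit across all 5255 probe sets bright enough to be tested. That fit placed 140 probe sets lower and 136 higher in the unloaded pools at a Benjamini-Hochberg adjusted p under 0.05. Of the 15 probe sets of the 10 genes, 14 were tested, and 2 were past the threshold, both lower (Id1 and Smad7). Among all tested probe sets 5.25% were called, 2.66% lower and 2.59% higher. As the genes were chosen on this comparison, nothing is read from these shares.

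Id1 restrains differentiation by holding E proteins, and responds within hours to BMP. Its brighter probe set read 103.6 and 81.6 signal units in the unloaded pools, against 342.0 and 355.5 in the control pools. The groups lay far apart, and the unloaded pools differed more from each other than the control pools did. The means were 92.6 ± 15.6 in unloaded and 348.8 ± 9.55 in control soleus (SD, n = 2 pools each), a log2 difference of -1.82 (SE 0.14), or 3.54-fold lower. It stood at rank 19 from the bottom of the 5255 tested probe sets. In bulk RNA, fewer cells that express a gene and less of its RNA per cell cannot be told apart.

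The dimmer probe set of Id1, made from the same database sequence, did not show this. It read 36.1 and 50.1 in the unloaded pools, against 58.2 and 48.8 in the control pools. The groups overlapped, and the log2 difference was -0.27 (SE 0.19). The size of the Id1 difference therefore rests on 1 of its 2 probe sets.

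Id2, which also binds E proteins and is known from other tissues for its part in cell cycle control and in the clock, went the opposite way. Its only probe set read 149.4 and 118.7 in the unloaded pools, against 73.2 and 87.6 in the control pools. Both unloaded pools lay above both control pools, with means of 134 ± 21.7 and 80.4 ± 10.2 (SD, n = 2 pools each). The log2 difference was 0.67 (SE 0.16), or 1.60-fold higher, and it was not past the threshold. It stood at rank 111 from the top of the tested probe sets.

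Id3, which acts with Id1 in blood vessel growth, was read by 2 probe sets that both ran lower. The brighter read 169.8 and 111.4 in the unloaded pools, against 176.5 and 214.5 in the control pools. The groups were separate by a narrow margin, since the higher unloaded pool lay just under the lower control pool, and the log2 difference was -0.47 (SE 0.19). The dimmer read 41.1 and 31.9 in the unloaded pools, against 50.1 and 73.1 in the control pools, with a log2 difference of -0.62 (SE 0.21). Neither was past the threshold, and the pools within each group stood well apart on both probe sets.

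**Figure D1:**
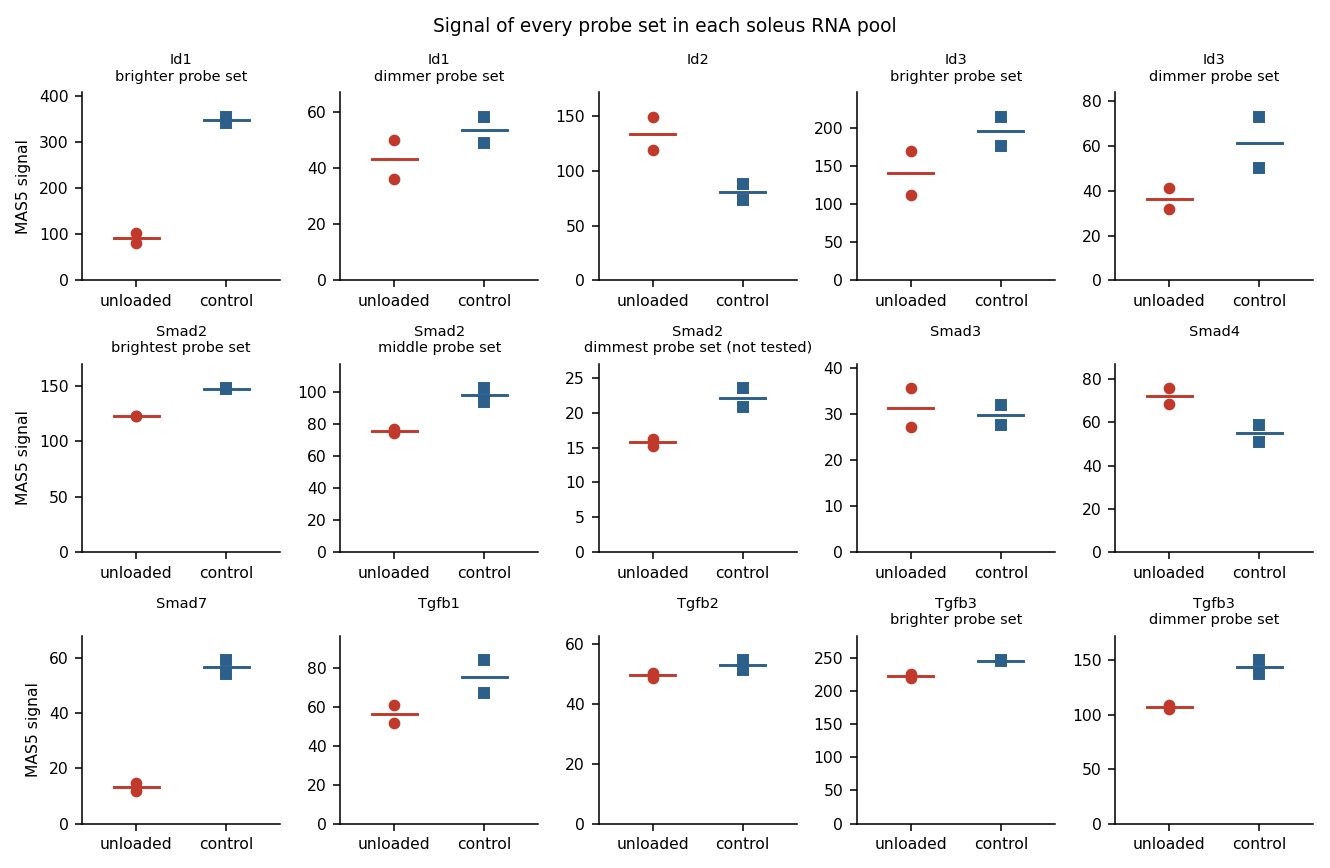
MAS5 signal (vertical axes, linear, from 0) of each of the 15 probe sets in the 2 unloaded pools (red circles) and the 2 control pools (blue squares), with a bar at each group's mean. The brighter probe set of Id1 (103.6 and 81.6 in unloaded pools, 342.0 and 355.5 in control pools) and Smad7 (11.6 and 14.7, against 59.1 and 54.0) show the widest gaps, and the dimmer Id1 probe set and Smad3 show groups that overlap.

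Because Id1 and Id3 are abundant in endothelium, markers of that cell type were read beside them. Of 9 endothelial markers 7 were on the array, none was past the threshold, and their summed signal was 661.0 and 728.4 in the unloaded pools, against 796.3 and 764.9 in the control pools, a ratio of 0.890. The sum is mostly that of Cav1 (ratio of group means 0.968), Pecam1 (1.01) and Flt1 (0.849). The dimmer markers Nos3 (0.669 on its brightest probe set), Edn1 (0.658) and Kdr (0.543) had lower ratios, with Vwf at 0.969. The other tested Nos3 probe sets were mixed, at 0.982, 0.795, 1.02 and 0.645. The pools of Kdr overlapped. The part of endothelial RNA in the Id values was not tested. The ratio of group means was 0.266 for the brighter Id1 probe set and 0.719 for the brighter Id3 probe set.

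Smad7 was the SMAD whose groups stood furthest apart. Its probe set read 11.6 and 14.7 in the unloaded pools, against 59.1 and 54.0 in the control pools. The groups did not come near each other, and the spread within each was small, with means of 13.2 ± 2.19 and 56.5 ± 3.61 (SD, n = 2 pools each). The log2 difference was -1.57 (SE 0.19). Both unloaded signals lie under 21, the mean signal required for a test, so the probe set was tested through its control level, and MAS5 values so dim are noisy. The size of the difference is therefore uncertain and depends on the offset, at -0.93 with an offset of 35 and -1.89 with an offset of 3. With control pool 1 or control pool 2 left out the difference kept its size (-1.51 and -1.62) and was no longer past the threshold.

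Smad2, a carrier of TGF-beta and activin signals, was a little lower on all 3 of its probe sets. The brightest read 122.7 and 122.9 in the unloaded pools, against 147.4 and 147.7 in the control pools, so the pools of a group were nearly equal. The middle probe set read 76.4 and 73.9 in the unloaded pools, against 93.8 and 102.0 in the control pools. The dimmest, at 16.3 and 15.3 against 20.8 and 23.5, lay under the signal filter and was not tested. These readings point the same way and are of like size, at log2 differences of -0.25 (SE 0.12), -0.34 (SE 0.13) and -0.33, and neither of the 2 tested was past the threshold.

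Smad3, the other transducer of TGF-beta, gave groups that overlapped, at 35.5 and 27.2 in the unloaded pools and 27.6 and 32.0 in the control pools (log2 difference 0.05, SE 0.20). Its sign depended on which pool was included, at -0.10 without unloaded pool 1 and -0.03 without control pool 1. Smad4, the partner shared by both branches, read 75.7 and 68.5 in the unloaded pools, against 58.8 and 51.0 in the control pools. Its groups did not overlap, and the log2 difference of 0.35 (SE 0.15) was not past the threshold. Within the SMADs the inhibitory member was thus low, Smad2 slightly lower, Smad3 level within its spread and Smad4 slightly higher.

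All 4 ligand probe sets, 2 of them of Tgfb3, read lower in both unloaded pools, at log2 differences of -0.39 to -0.08. Both unloaded pools were under both control pools for 22.7% of all probe sets. Tgfb1, the isoform most studied in muscle fibrosis, read 60.9 and 51.9 in the unloaded pools, against 66.9 and 84.1 in the control pools, with a log2 difference of -0.37 (SE 0.17). Tgfb2 read 50.1 and 48.6 in the unloaded pools, against 51.3 and 54.5 in the control pools (-0.08, SE 0.15). The groups of both were separate, those of Tgfb2 by little more than 1 signal unit. The 2 probe sets of Tgfb3 differed in size but not in sign. The brighter read 225.8 and 219.8 in the unloaded pools and 246.2 and 244.4 in the control pools (-0.13, SE 0.10), and the dimmer 108.8 and 105.3 in the unloaded pools and 137.2 and 150.0 in the control pools (-0.39, SE 0.12). None of the 4 ligand probe sets was past the threshold.

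**Figure D2:**
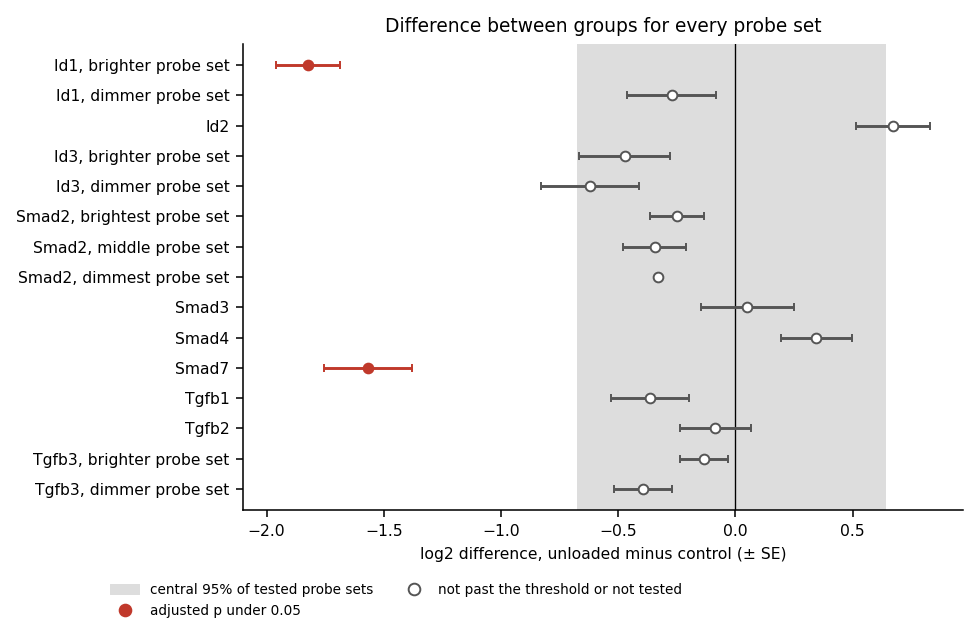
Difference between unloaded and control pools on the scale log2(signal + 9) for each probe set, with its SE from the limma fit (the dimmest Smad2 probe set was not tested and has none). The grey band spans the central 95% of the 5255 tested probe sets, from -0.67 to 0.64. The brighter Id1 probe set (-1.82) and Smad7 (-1.57) lie far below it, Id2 (0.67) just above it, and the other 12 inside it.

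Counted over all 15 probe sets, 12 had a lower mean log2 signal in the unloaded pools and 3 a higher one, with a median difference of -0.33, beside a median of -0.01 over all 8740 probe sets. Both unloaded pools were under both control pools for 11 of the 15, beside 22.7% of all probe sets, and above them for 2, beside 20.9%. The 2 with overlapping groups were the dimmer Id1 probe set and Smad3. Several of the 15 read the same transcript, so they are not independent of each other.

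The tested genes whose values over the 4 arrays were most like those of Id1 were taken as the 5 with the smallest Euclidean distance between log2 profiles, each centred on its control mean. They were Nr4a2 (distance 0.09), an orphan nuclear receptor, Klf4 (0.40), a zinc-finger factor, Ppp1r15a (0.44), which directs a phosphatase to a translation factor, Bdnf (0.50), a neurotrophin, and Fos (0.52), a subunit of AP-1. For Smad7 they were Klf4 (0.23), Ppp1r15a (0.27), the MAP kinase phosphatase Dusp1 (0.37), Fos (0.42) and the trafficking factor Unc119 (0.42). Klf4, Ppp1r15a and Fos stood on both lists. With 4 arrays in 2 groups this likeness is mostly likeness of the difference between groups. Nr4a2, Bdnf and Unc119 averaged 10.8, 3.85 and 16.4 in the unloaded pools, against 58.6, 41.4 and 56.1 in the control pools, so like Smad7 they passed the filter only through the control level, and distances to or from these genes rest on dim values.

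**Figure D3:**
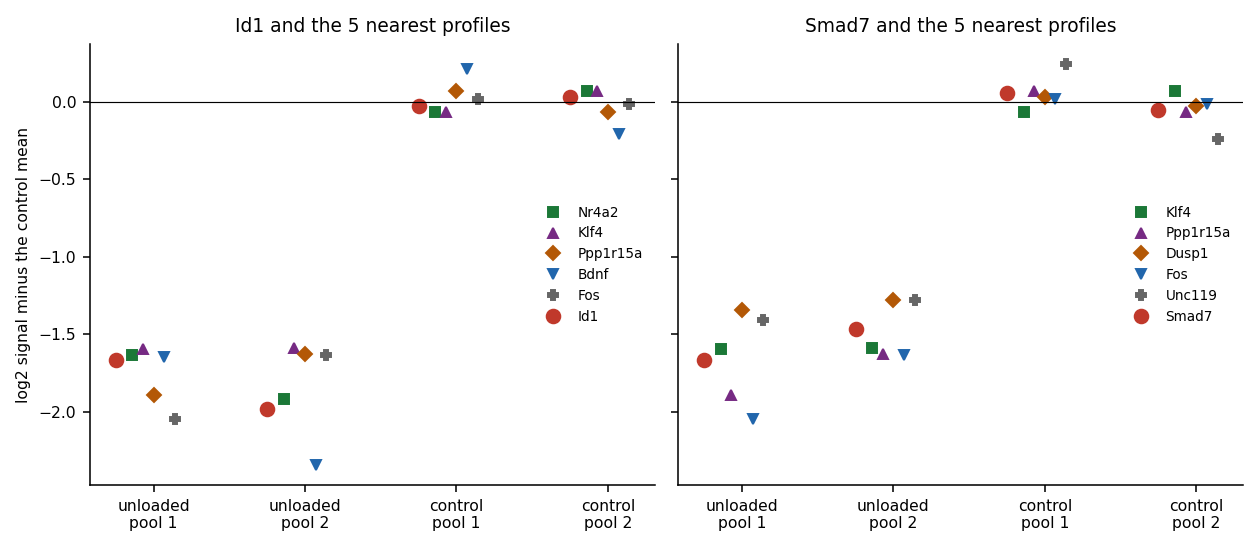
Log2(signal + 9) minus the control mean in each pool for Id1 (left) and Smad7 (right), as large red circles, and for the 5 genes nearest to each in profile. In the unloaded pools Id1 and its neighbours lie between -2.35 and -1.59, and Smad7 and its neighbours between -2.05 and -1.28, while control pools lie within 0.25 of zero.

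Other genes of the pathway were counted from lists by role, each gene by its brightest tested probe set and tested in the same limma fit, with Benjamini-Hochberg adjustment over all tested probe sets. Of 105 listed genes 66 were on the array and 46 were tested. Of these, 3 rose and 3 fell, beside 2.54% and 2.16% of the 3150 tested genes called higher and lower. Their median log2 difference was 0.00, against 0.01 over all tested genes. The lists too were chosen with earlier results of these data known, so nothing is read from these shares.

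No receptor, other ligand or extracellular modulator was past the threshold on its brightest probe set. Among 6 receptors the activin and BMP receptor Acvr1 gave the widest difference, at 49.5 and 65.6 in the unloaded pools against 87.3 and 85.3 in the control pools (log2 difference -0.53, SE 0.16, adjusted p = 0.121 from limma). The endothelial receptor Acvrl1 gave -0.38 (SE 0.18), the BMP receptor Bmpr1a -0.30 (SE 0.19) and the activin receptor Acvr2b 0.28 (SE 0.13). None of these differences passed, and the remaining receptors, Tgfbr3 (0.22, SE 0.15) and Acvr1b (-0.07, SE 0.16), did not pass either. Among 5 ligands the values ran from -0.27 for Inhba (SE 0.19), a subunit of activin, to -0.11 for Inha (SE 0.11), with Amh at -0.22 (SE 0.14) and Bmp6 at -0.15 (SE 0.16). The BMP-branch transducer Smad1 gave 0.25 (SE 0.19) on its brighter probe set and -0.34 (SE 0.21) on its dimmer one.

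Among 7 modulators the BMP antagonist Nog gave 0.45 (SE 0.19), Fstl1 0.23 (SE 0.11) and the proteoglycan Bgn 0.12 (SE 0.11). Dcn, decorin, a matrix proteoglycan that can bind TGF-beta, gave 0.41 (SE 0.11, adjusted p = 0.0829 from limma) on its brightest probe set. A dimmer probe set of Dcn rose, at 738.6 and 668.5 in the unloaded pools against 350.3 and 410.6 in the control pools (0.87, SE 0.11, adjusted p = 0.00539). The remaining pair of probe sets gave 0.31 and 0.21 and did not pass. In limma the call on the dimmer one was lost without unloaded pool 1 (adjusted p = 0.0838), unloaded pool 2 (0.0536) or control pool 1 (0.0551).

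Of 14 genes that TGF-beta or BMP can induce, 2 rose and 12 did not pass. Klf10, an early TGF-beta-induced repressor known from human cell lines to repress SMAD7, read 191.4 and 166.8 in the unloaded pools against 53.2 and 71.5 in the control pools. It rose by 1.41 on the log2 scale (SE 0.16, adjusted p = 0.00334 from limma), and by 1.18 (SE 0.14) on another probe set. Hes1, better known as a Notch target, read 360.9 and 404.0 in the unloaded pools against 167.9 and 179.0 in the control pools and rose by 1.10 (SE 0.11, adjusted p = 0.00148), with 0.99 (SE 0.13) on its other probe set. Junb gave -0.79 (SE 0.23, adjusted p = 0.0984 from limma) on its brighter probe set and -0.09 (SE 0.18) on its dimmer one. Fn1, fibronectin, gave 0.43 (SE 0.17) on its brightest probe set. The other tested Fn1 probe sets gave 0.04, -0.15 and -0.08, with pools that overlapped. The smooth-muscle actin Acta2 rose by 0.82 (SE 0.15, adjusted p = 0.0221) on its dimmest probe set, while its brightest gave 0.25 (SE 0.11). In limma, Klf10 was not past the threshold without unloaded pool 1 (adjusted p = 0.0593 on both probe sets), the dimmer Hes1 probe set without unloaded pool 1 or 2 (0.0625 and 0.0788), and Acta2 without any 1 of the 4 pools (0.0602 to 0.169), without the filter (0.0945) or without a mean-variance trend (0.0736). By sign the direction within this list was mixed, with 6 of the 14 genes lower and none of them past the threshold. Klf10 and Hes1 rose. Outside the list, the brighter Id1 probe set and Smad7, also targets of the pathway, were lower. Any link between these values was not tested.

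Among 7 bHLH partners and targets of the Id factors, Myog rose and Myf6 fell, and 5 did not pass. Myog, myogenin, read 337.0 and 330.4 in the unloaded pools against 218.6 and 190.7 in the control pools (log2 difference 0.68, SE 0.11, adjusted p = 0.0143 from limma). Myf6, the myogenic factor of mature fibres, read 644.7 and 631.6 in the unloaded pools against 990.2 and 883.4 in the control pools (-0.55, SE 0.10, adjusted p = 0.0201). Myog and Myf6 thus differed in opposite directions, with no overlap of pools in either. A further muscle-specific factor, Myod1, gave -0.07 (SE 0.19), with pools that overlapped. With 1 pool left out, the limma call of Myf6 was lost in each of the 4 cases (adjusted p = 0.0694 to 0.133), and that of Myog without unloaded pool 1 (0.137), unloaded pool 2 (0.114) or control pool 2 (0.0887). Both calls were also lost without the filter on dim probe sets (Myf6 0.0640, Myog 0.0538) and without a mean-variance trend (Myf6 0.0920, Myog 0.0630). The E-protein gene Tcf12 gave -0.16 (SE 0.17). Ets1, a factor that Id proteins can bind, gave 0.20 (SE 0.16) on its brighter probe set and -0.42 (SE 0.23) on its dimmer one.

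Among 6 partners of SMADs, Atf3 and Fos fell and 4 did not pass. Atf3, which in human epithelial cells joins Smad3 to repress ID1, read 35.9 and 31.6 in the unloaded pools against 330.9 and 249.0 in the control pools (log2 difference -2.79, SE 0.16, adjusted p = 1.35e-04 from limma). Fos fell by 1.84 on its brightest probe set (SE 0.14, adjusted p = 3.12e-04). Jun gave -0.13 (SE 0.09) and Foxo1 0.29 (SE 0.19). Both Atf3 and the brighter Id1 probe set were lower in the unloaded pools, and any link between them was not tested.

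**Figure D4:**
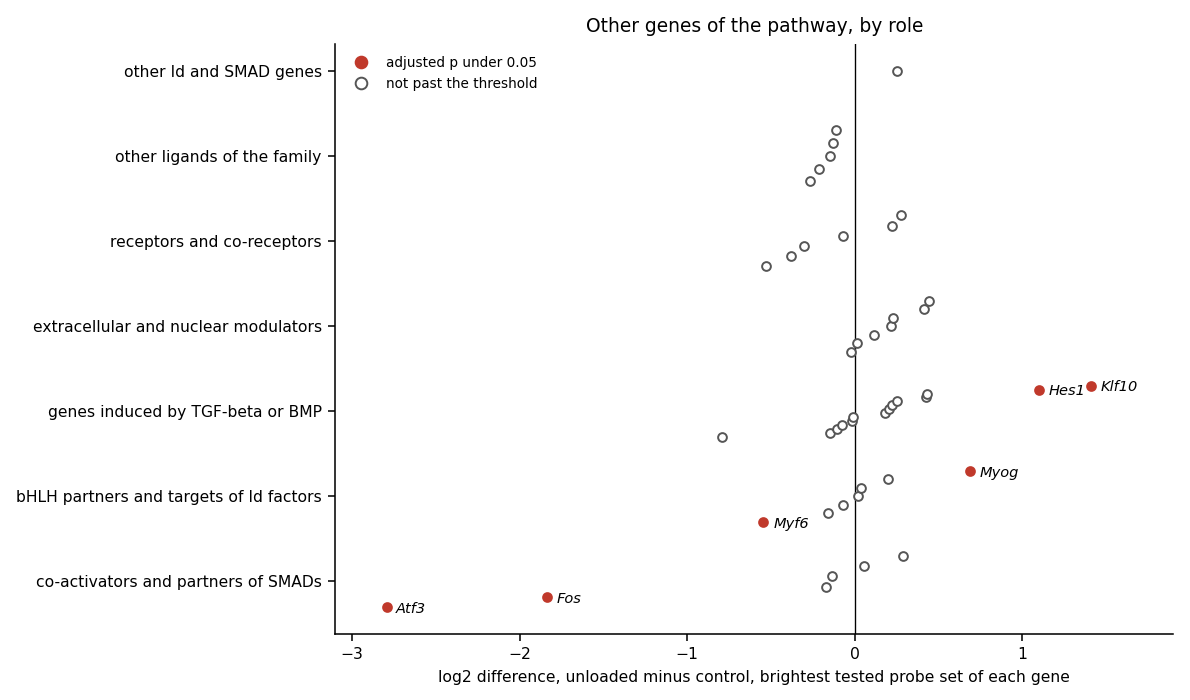
Difference between unloaded and control pools on the scale log2(signal + 9) for the 46 tested pathway genes by role, 1 point per gene from its brightest tested probe set. Filled red points passed an adjusted p under 0.05: Klf10, Hes1 and Myog on the right and Myf6, Fos and Atf3 on the left, while receptors, ligands and modulators lie between -0.53 and 0.45.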

How the data were processed

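Per the labels' protocols, total RNA was extracted with Trizol, and biotin-labelled cRNA was hybridised to Affymetrix arrays, 1 array per pool. The authors deposited intensity values per probe set, made, per the submitters' processing notes, with MAS5 (version and settings not stated). Detection calls and batches were not used here. Of 8799 probe sets, 59 Affymetrix controls were left out. The rest were named through the platform's annotation, with symbols updated by gene ID to RefSeq (GRCr8): 7006 had 1 symbol, 308 several and 1426 none. None of those with several named any of the 10 genes.

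Signals were transformed as log2(signal + 9), 9 being their 25th percentile. Probe sets averaging 21 or more, the 40th percentile, entered the test with limma 3.58.1 in R 4.3.3 (lmFit, eBayes with a mean-variance trend, 2 residual and 5.81 prior degrees of freedom), unloaded against control, with Benjamini-Hochberg adjustment and a threshold of 0.05. The fit was tested on simulated data. Figures used matplotlib 3.10.9.

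The genes, lists, tests and alternatives were chosen with earlier results of these data known. Named were every probe set of the 10 genes, listed pathway genes past the threshold, the 4 with the smallest p in each list, and the 5 nearest profiles of each of the 10 genes past the threshold. Marker lists covered slow muscle, endothelium, smooth muscle, fibroblasts, leukocytes, red blood cells, adipocytes and Schwann cells. Alternatives covered the normalization, offset, filter, variance model, pool number as a block, each array left out, the threshold and genes in place of probe sets. Nothing shows that pools came from separate experiments. The p-values rest on the spread between these pools, with much of each variance estimate taken from other probe sets of like signal. They do not measure the spread between rats.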

Additional observations from a re-analysis of the deposited data

How the results depend on the processing

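Over up to 14 alternatives per probe set, the brighter Id1 probe set stayed past the threshold in all 14 (-1.98 to -1.59), and Smad7 in 11 of 13 (-1.89 to -0.93), the exceptions being control pool 1 or 2 left out. Under the filter at the 60th percentile Smad7 was not tested. All alternatives reuse the arrays on which the genes were chosen, so staying past the threshold describes the processing and is no independent support. Id2 kept its sign in all 14 (0.52 to 0.83) and was past the threshold with median scaling (0.70), with the filter at the 60th percentile and with an adjusted p under 0.10. With 1 array left out, Smad3 ranged from -0.10 (without unloaded pool 1) to 0.20, changing sign also without control pool 1 (-0.03), and the brighter Bmp6 probe set ranged from -0.33 to 0.028, changing sign without unloaded pool 2. Of 187 values for the 10 genes, 180 kept both sign and side of the threshold. With 1 array left out, 67 to 84 probe sets in all, 1 to 2 of the 10 genes and 3 to 5 of the other pathway genes passed, the 3 without unloaded pool 1. Over all probe sets the count of 276 became 90 without a filter on dim probe sets, 112 without a mean-variance trend, 142 with genes in place of probe sets and 459 at an adjusted p under 0.10. The first pair of settings left 4 of the 6 other pathway genes, 2 higher and 2 lower, without Myog and Myf6. Median scaling gave 168 higher and 133 lower. Pools with the same number did not deviate together (correlation of deviations -0.04), so the numbers are not taken as pairs. With the pool number as a replicate block 165 probe sets passed, with the brighter Id1 probe set and Smad7 among them. So did 7 other pathway genes, the added one being Junb on its brighter probe set (limma adjusted p = 0.0495).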

Other observations

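Several family members with a known place in muscle growth were too dim to be tested, and their values are given without a comparison. Mstn, myostatin, the ligand that restrains muscle mass, read 14.8 and 12.7 in the unloaded pools and 8.9 and 10.3 in the control pools. Its antagonist Fst, follistatin, read 21.6 and 10.8 in the unloaded pools and 33.3 and 17.7 in the control pools on its brighter probe set, with groups that overlapped. The TGF-beta receptor Tgfbr1 read 13.3 and 11.6 in the unloaded pools and 16.9 and 17.8 in the control pools on its brighter probe set. Bmp4 read 22.7 and 17.9 in the unloaded pools and 16.9 and 25.7 in the control pools, and Gdf11, a close relative of myostatin, 1.8 and 0.6 in the unloaded pools and 1.1 and 1.5 in the control pools. At such signals MAS5 values are noisy, and no level is read from them.

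Other cell types were read through their markers, each list summed over the brightest probe set of each gene. Smooth muscle (5 genes) gave 5272 and 5572 in the unloaded pools and 5119 and 5244 in the control pools. Most of that is Des, also counted as a skeletal muscle marker, and without it (a sum added after seeing the data) the other 4 genes gave 1205 and 1306 in the unloaded pools and 968.9 and 1087 in the control pools, a ratio of 1.22. Acta2 rose on a dimmer probe set. Fibroblasts and matrix (6 genes) gave 10603 and 8706 in the unloaded pools and 8117 and 9276 in the control pools. Of these genes, Dcn rose on a dimmer probe set, described above, and did not pass on its others. Red blood cells (2 genes) gave 5132 and 5035 in the unloaded pools and 4256 and 4508 in the control pools, leukocytes (7 genes) 620.1 and 522.8 in the unloaded pools and 449.9 and 656.7 in the control pools. Adipocytes (5 genes) gave 1770 and 2096 in the unloaded pools and 1831 and 2082 in the control pools, and Schwann cells (3 genes) 543.5 and 558.3 in the unloaded pools and 575.6 and 626.3 in the control pools. None of these markers passed on its brightest probe set, and sums of smooth-muscle and red-cell markers were higher in both unloaded pools. Their part in the values of the Id and SMAD genes was not tested.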
